A study of Mus musculus with 6 samples.

Results

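The contractile machinery of vascular smooth muscle was followed through 33 genes, taken as a list by mouse NCBI gene identifier from the deposited table of 18191 genes. Actin genes were not part of the list. All 33 genes were in the table, and all 33 passed the filter on low counts and were among the 13938 genes tested. RNA of the whole aorta of male mice was sequenced in 3 wild-type (WT) libraries and 3 libraries of heterozygous Npr1 knockout mice, written Npr1+/-. Such mice keep 1 intact copy of Npr1 in every cell type. Npr1 encodes natriuretic peptide receptor 1, a membrane enzyme that makes cGMP when it binds atrial or B-type natriuretic peptide. The age of the mice is not given in the sources used here. The design gives 3 per group without saying how libraries relate to animals, so the p-values below measure the spread between these 6 libraries. The whole aorta was used, so fewer smooth muscle cells and less RNA of a gene per smooth muscle cell cannot be told apart here.

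Smooth muscle shortens when calcium binds calmodulin and switches on myosin light chain kinase, which phosphorylates the regulatory light chain of myosin. Myosin phosphatase removes that phosphate, RhoA and its kinases restrain the phosphatase, and cGMP signalling is known to relax the vessel by working against these steps. Many of the genes are switched on together by serum response factor (Srf) and its partner myocardin (Myocd), which act through a DNA element called the CArG box.

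The CArG boxes near the starts of the genes are shown first because they are the element through which Srf and Myocd act. Promoters from RefSeq on GRCm38.p6, running from 250 bases before to 50 bases after an annotated start, were matched for 29 of the 33 genes. Myh11, Tagln, Rock1 and Myocd had no entry. The CArG box, whose consensus covers both strands at once, was matched exactly in 4 of the 29 genes (13.8%), against 488 of 27025 genes (1.81%) in the whole promoter table. The windows run 5′ to 3′ on the strand of the gene, with the CArG boxes in capitals.
Myl9: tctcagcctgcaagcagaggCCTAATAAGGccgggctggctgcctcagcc
Myl6: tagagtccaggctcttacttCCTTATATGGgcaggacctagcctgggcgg
Ldb3: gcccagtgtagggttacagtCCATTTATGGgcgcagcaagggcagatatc
Srf: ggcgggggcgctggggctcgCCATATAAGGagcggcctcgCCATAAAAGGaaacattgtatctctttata
The Myl9 window is chr2:156775283-156775332 on the plus strand, and its box begins 161 bases before the annotated start, which lies 56 bases inside the RefSeq span of the gene. The Myl6 window is chr10:128493030-128493079 on the minus strand, with the box 50 bases before a second annotated start 877 bases inside the gene. For Ldb3 the window is chr14:34588687-34588736 on the minus strand, with the box 35 bases before an annotated start 1633 bases inside the gene. The Srf gene carries 2 boxes in chr17:46556195-46556264 on the minus strand, 82 and 62 bases before an annotated start 2105 bases inside the gene. No match in the other 25 genes says only that an exact box is not in these windows.

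In these libraries some of the contractile genes were among the most abundant transcripts. Levels are given as FPKM, the fragments of a gene scaled by the length of its transcripts and the size of the library, which the authors deposited and which allows genes of different length to be compared. Of the 134 genes with a mean above 500 FPKM, 9 were on the list. The order ran from Tagln (SM22α, an actin-binding protein of differentiated smooth muscle) to Pln (phospholamban, the brake on the calcium pump of the sarcoplasmic reticulum). Tagln averaged 3448 FPKM over the 6 libraries and Pln 2.76 FPKM, with Pln still resting on 70 to 143 estimated counts per library.

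**Figure D1:**
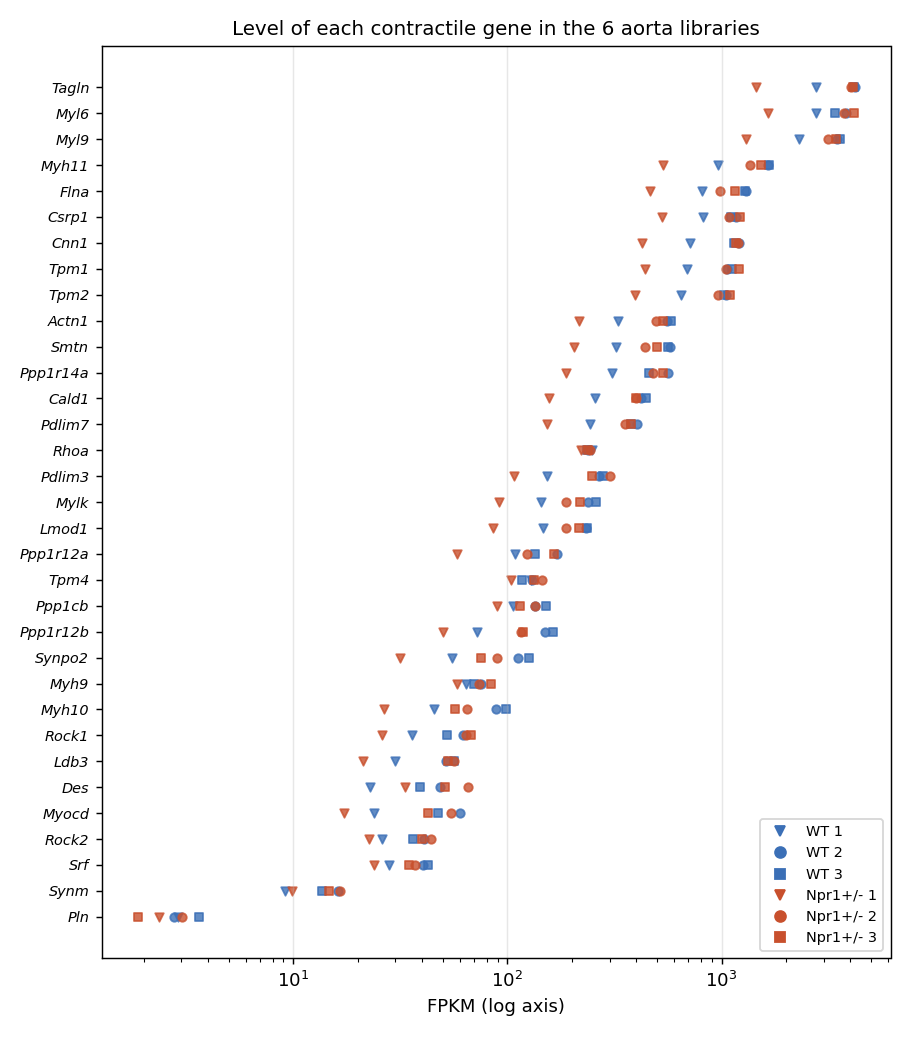
The horizontal axis is FPKM on a log scale, and each row is 1 of the 33 contractile genes, ordered by its mean over the 6 libraries. Blue points are WT and red points are Npr1+/- libraries, with triangles for libraries numbered 1, circles for 2 and squares for 3. For Tagln, the triangles lie at 2771 and 1456 FPKM and the other 4 points between 4024 and 4186 FPKM.

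Total estimated counts per library lay between 13510970 and 16664343. Npr1, the targeted gene, was at 112, 153 and 152 FPKM in WT 1 to 3 and at 70.35, 109.9 and 133 FPKM in Npr1+/- 1 to 3, so the groups overlapped. Its log2 fold change (Npr1+/- against WT) was -0.41 with an adjusted p of 0.999 in edgeR, and -0.44 with an adjusted p of 0.311 when libraries of the same number were paired as a replicate block.

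With edgeR, 0 of the 33 genes passed an adjusted p of 0.05 together with an absolute log2 fold change of 0.5, and the share called among all 13938 genes was 0% as well. DESeq2 called 15 genes, 0 of them on the list. The number of contractile genes with an unadjusted p under 0.05 in edgeR was 0, where 2.96% of all tested genes had one. Myh10 had the smallest unadjusted p of the list, 0.171, with an adjusted p of 0.999.

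The fold changes nevertheless leaned one way. On the scale of TMM normalization, which sets libraries level over all genes, 28 of the 33 genes had a negative log2 fold change and 5 a positive one, with a median of -0.20, beside 6752 negative and 7186 positive among all genes tested with a median of 0.0076. Without library Npr1+/- 1, which leaves the low WT 1 in, 21 of the 33 fold changes were positive and the median was 0.09. Without both libraries numbered 1, 9 were positive and the median was -0.10. No contractile gene had its 3 Npr1+/- libraries all below its 3 WT libraries (3.58% of all genes did), and none had them all above (3.9% of all genes), in TMM-normalized CPM (counts scaled to library size).

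The 6 libraries differed far more along another line. In 30 of the 33 genes, WT 1 and Npr1+/- 1 were both below all other 4 libraries in CPM, a pattern found in 24.1% of all genes tested. The exceptions were Tpm4, Rhoa and Pln. Npr1+/- 1 was the lowest of the 6 libraries for 29 of the 33 genes, against 29.6% of all genes. The 33 genes together took 3.51% of the counts in WT 1, 5.61% in WT 2 and 5.59% in WT 3, beside 2.12% in Npr1+/- 1, 4.87% in Npr1+/- 2 and 5.29% in Npr1+/- 3. The ratio of the highest to the lowest library had a median of 2.74 over the 33 genes and of 1.67 over all genes. It ran from 1.07 for Rhoa to 4.08 for Synpo2.

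**Figure D2:**
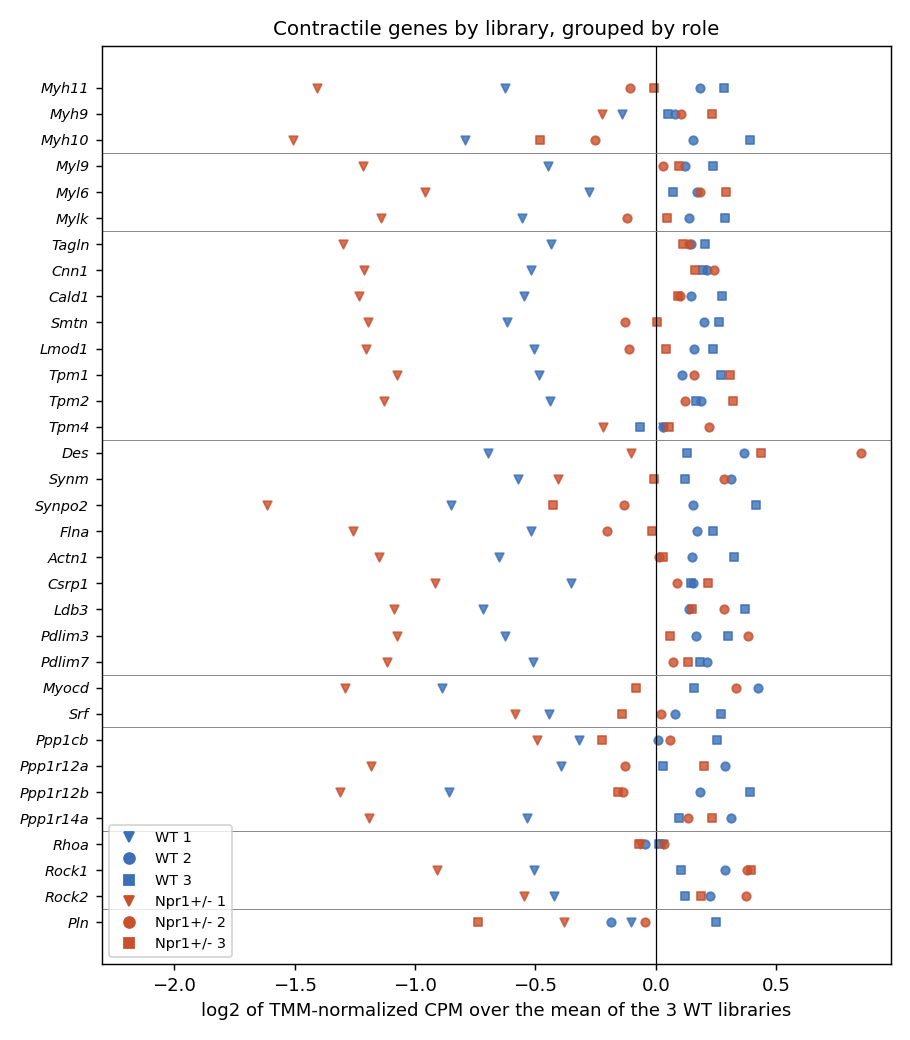
The horizontal axis is the log2 ratio of TMM-normalized CPM to the mean of the 3 WT libraries, and rows are the 33 genes grouped by role, with grey lines between roles. Both triangles, the libraries numbered 1, lie to the left of the other 4 points for 30 genes, while Rhoa gathers all 6 points within a 1.07-fold span.

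Markers of other cells moved with the same libraries. The 10 smooth muscle markers outside the list, including Acta2 and Itga8, summed to 4526, 8239 and 9185 FPKM in WT 1 to 3 and to 2917, 8118 and 8206 FPKM in Npr1+/- 1 to 3, and 8 of the 10 were lower in both libraries numbered 1 than in the other 4. Brown adipocyte markers summed to 457 to 3236 FPKM in WT and 869 to 2977 FPKM in Npr1+/- libraries, and 8 of 8 were higher in both libraries numbered 1. White adipocyte markers ran from 706 to 4073 and from 1735 to 7943 FPKM, with 6 of 8 higher there and Npr1+/- 1 the highest for 8 of 8, and erythroid genes from 1146 to 13534 and from 1333 to 10774 FPKM, with 5 of 5. Library Npr1+/- 1 alone was the highest for 10 of 10 neuronal markers, whose sum ran from 67.9 to 82.3 FPKM in WT and from 68.7 to 305 FPKM in Npr1+/- libraries, although Th, Dbh, Syt1 and Chga were at 0 in at least 1 library. Schwann cell markers ran from 12.8 to 18.3 and from 16.8 to 101 FPKM, with Pmp2 at 0 in at least 1 library. Shares of all genes higher in both libraries numbered 1, or highest in Npr1+/- 1, were not computed. Counts of these patterns in the marker lists are therefore descriptions only. The part of these tissues and cells in the levels of the contractile genes was not tested.

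Fibroblast markers summed to 2112 to 3073 FPKM in WT and 2286 to 2653 FPKM in Npr1+/- libraries, with 1 of 10 higher in both of these libraries. For macrophages the sums were 158 to 408 and 199 to 279 FPKM, with 6 of 8 higher in both. Endothelial markers summed to 193 to 284 FPKM in WT and 321 to 452 FPKM in Npr1+/- libraries, with Npr1+/- 1 the highest for 10 of 11. Of these, 4 of 11 had all 3 Npr1+/- libraries above all 3 WT libraries in FPKM, beside 3.9% of all genes in CPM. Lymphocyte markers reached 2.5 and 5.28 FPKM at most, with Nkg7 at 0 in at least 1 library. Striated muscle, which shares several genes of the list, was scarce. Cardiomyocyte markers summed to 15.7 to 28.1 and 27.2 to 36.2 FPKM, with Myl7, Myh7 and Mybpc3 at 0 in at least 1 library, and skeletal fibre markers to 12.4 to 32.3 and 17.45 to 40.15 FPKM, with Myh1, Myh2 and Myh4 at 0 in at least 1.

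**Figure D3:**
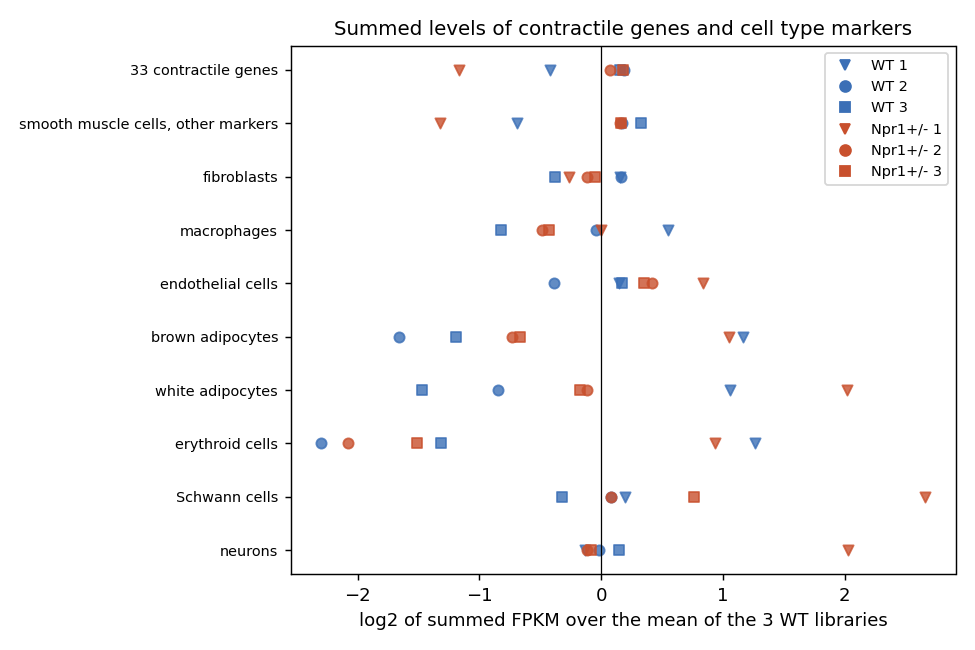
The horizontal axis is the log2 ratio of the summed FPKM of a list to its mean in the 3 WT libraries, with 1 point per library in each row. The triangles of the libraries numbered 1 lie left of the other points for the 33 contractile genes (15400 and 9181 FPKM) and right of them for brown adipocyte markers (3236 and 2977 FPKM).

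Myosin heavy chains are the motors of the machinery. Myh11, the smooth muscle isoform, lies at chr16:14194527-14292188 on GRCm38.p6 and was at 967, 1644 and 1659 FPKM in WT 1 to 3 and at 531, 1354 and 1523 FPKM in Npr1+/- 1 to 3. The lowest library in each group was the one numbered 1, and the groups overlapped because WT 1 lay below Npr1+/- 2 and 3. Its log2 fold change was -0.38 with a standard error (SE) of 0.51. Myh10, a nonmuscle isoform at chr11:68691915-68816626, was at 45.5, 88.4 and 99.0 FPKM in WT and at 26.5, 64.7 and 57.2 FPKM in Npr1+/- aortas. The lower library of all 3 same-numbered pairs was the Npr1+/- one, with CPM at 60.9%, 75.6% and 54.8% of its WT counterpart. Myh9, the other nonmuscle isoform, stayed between 57.9 and 84.0 FPKM with a log2 fold change of 0.051. Myh11 made up 90.5 ± 0.596% of the 3 heavy chains in WT and 89.5 ± 2.81% in Npr1+/- aortas (SD, n = 3, exact two-sided permutation test, p = 0.8, where the smallest possible p is 0.1).

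The light chains were at a similar height to each other. Myl9, the regulatory light chain that is phosphorylated, was at 2312, 3456 and 3569 FPKM in WT and at 1298, 3146 and 3419 FPKM in Npr1+/- libraries. Myl6, the essential light chain, was at 2775, 3812 and 3385 FPKM in WT and at 1651, 3725 and 4161 FPKM in Npr1+/- libraries. For both genes WT 1 lay between Npr1+/- 1 and the other Npr1+/- libraries, so the groups overlapped, with log2 fold changes of -0.25 (SE 0.44) for Myl9 and -0.061 (SE 0.39) for Myl6, both positive without Npr1+/- 1. Myl9 was 48.1 ± 2.98% of the sum of both in WT and 45.0 ± 0.892% in Npr1+/- aortas (SD, n = 3, exact two-sided permutation test, p = 0.2). Mylk, the kinase that phosphorylates Myl9, ran from 91.0 to 259 FPKM, with a log2 fold change of -0.32.

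Thin filament proteins coat or tune actin. Tagln was at 2771, 4186 and 4144 FPKM in WT and at 1456, 4024 and 4106 FPKM in Npr1+/- libraries, so that 4 libraries of both genotypes were close and only the libraries numbered 1 stood lower. Its exons share 94 bases (5.89% of its exon bases) with Pcsk7 on the other strand, and Rhoa shares 32 bases with Tcta in the same way. Cnn1 (calponin, an inhibitor of myosin ATPase activity) was at 714, 1208 and 1139 FPKM in WT and at 425, 1189.7 and 1166 FPKM in Npr1+/- libraries. The log2 fold changes of Tagln and Cnn1 were -0.21 and -0.14, and without Npr1+/- 1 they were 0.11 and 0.19.

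The tropomyosins, which lie along the actin groove, split by family member. Tpm1 was at 689.6, 1055 and 1120.1 FPKM in WT and at 439.6, 1054 and 1204 FPKM in Npr1+/- libraries. Tpm2 was at 645, 1048 and 1022 FPKM in WT and at 395, 961 and 1089.6 FPKM in Npr1+/- libraries. Both had their lowest values in the libraries numbered 1, whereas Tpm4, the more widely expressed form, stayed between 104 and 145 FPKM. Tpm2 was 45.4 ± 1.43% of the 3 tropomyosins in WT and 43.8 ± 1.52% in Npr1+/- aortas (SD, n = 3, exact two-sided permutation test, p = 0.4). Cald1 (caldesmon) ran from 156 to 444 FPKM, Smtn (smoothelin) from 205 to 572 FPKM and Lmod1 (leiomodin 1, an actin nucleator of smooth muscle) from 86.1 to 235 FPKM. Their log2 fold changes were -0.23, -0.35 and -0.33, and each was lower in the Npr1+/- library of all 3 same-numbered pairs.

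Dense bodies anchor the thin filaments and join them to the cell membrane and the intermediate filaments. Flna, the cross-linker filamin A, was at 806, 1297 and 1288 FPKM in WT and at 461, 983 and 1159.7 FPKM in Npr1+/- libraries, with a log2 fold change of -0.40 (SE 0.48). Csrp1, a LIM protein of the actin cytoskeleton, was at 816, 1168 and 1105 FPKM in WT and at 528, 1082 and 1226 FPKM in Npr1+/- libraries. Actn1, α-actinin 1, was at 327, 556 and 579.5 FPKM in WT and at 215, 494 and 535 FPKM in Npr1+/- libraries. In all 3 genes the libraries numbered 1 were lowest and the groups overlapped. The PDZ-LIM proteins that bind α-actinin ran from 21.2 to 56.5 FPKM for Ldb3, from 107 to 301 FPKM for Pdlim3 and from 153 to 401 FPKM for Pdlim7.

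Within this set, Synpo2 and Des were at the opposite ends. Synpo2 (myopodin, an actin-bundling protein; chr3:123076519-123236168) was at 55.1, 112 and 127 FPKM in WT and at 31.4, 89.0 and 75.0 FPKM in Npr1+/- libraries, or 59.0%, 81.9% and 55.8% of the same-numbered WT library in CPM. Des (desmin, the muscle intermediate filament; chr1:75360292-75368579) was at 22.9, 48.3 and 39.0 FPKM in WT and at 33.1, 65.4 and 50.9 FPKM in Npr1+/- libraries, or 151%, 140% and 124% of the same-numbered WT library in CPM. Des was the single gene of the list that was higher in the Npr1+/- library in every pair, which 17.5% of all genes were. The summed cardiomyocyte and skeletal fibre markers were higher in every pair as well. The groups of Des overlapped across pairs, since Npr1+/- 1 lay below WT 2 and WT 3. Synm (synemin, a partner of desmin) did not follow Des, with 9.17 to 16.6 FPKM and a log2 fold change of -0.017.

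Of the transcription factors that drive the programme, Myocd ran from 17.3 to 60.1 FPKM and Srf from 23.9 to 42.8 FPKM, and both were lowest in Npr1+/- 1. Their log2 fold changes were -0.20 (SE 0.48) and -0.21 (SE 0.24). Both were lower in the Npr1+/- library of all 3 pairs, and Myocd was at 75.6%, 93.7% and 84.6% of WT in CPM.

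Myosin phosphatase consists of a catalytic subunit and a targeting subunit. Ppp1cb, the catalytic subunit, ran from 89.8 to 151 FPKM and Ppp1r12a (MYPT1, the main targeting subunit of vascular muscle) from 57.9 to 170.3 FPKM. Ppp1r12b (MYPT2; chr1:134754658-134955963) was at 71.8, 149 and 164 FPKM in WT and at 49.95, 116 and 118 FPKM in Npr1+/- libraries, with 73.1%, 79.9% and 68.4% of the same-numbered WT library in CPM. Every Npr1+/- library was thus below its WT partner, while WT 1 lay below Npr1+/- 2 and 3. Ppp1r12b was 47.1 ± 7.54% of the sum with Ppp1r12a in WT and 45.5 ± 3.38% in Npr1+/- aortas (SD, n = 3, exact two-sided permutation test, p = 0.9). Ppp1r14a (CPI-17, a phosphatase inhibitor of smooth muscle) ran from 188 to 561 FPKM, with a log2 fold change of -0.15.

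RhoA and its kinases act on the phosphatase. Rhoa, the GTPase, stayed between 222 and 248 FPKM in all 6 libraries, with a log2 fold change of -0.033 (SE 0.16). Rock1, a RhoA-activated kinase, was at 35.8, 62.2 and 52.0 FPKM in WT and at 25.9, 64.3 and 67.5 FPKM in Npr1+/- libraries, and Rock2, its close relative, at 25.8, 41.0 and 36.2 and at 22.7, 44.1 and 40.1 FPKM. For both kinases the libraries numbered 1 were lowest and Npr1+/- 2 was above WT 2 and Npr1+/- 3 above WT 3. Rock1 was 59.1 ± 1.12% of the sum of both in WT and 58.4 ± 4.79% in Npr1+/- aortas (SD, n = 3, exact two-sided permutation test, p = 0.9). Adjusted over the 5 shares tested, all 5 values of p were 0.9. Pln ran from 1.88 to 3.63 FPKM, was lowest in Npr1+/- 3 and had a log2 fold change of -0.36 (SE 0.25).

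Pairing the libraries by their replicate number narrowed the errors. The labels do not say what a number stands for. Deviations from the group means correlated at 0.45 for WT 3 with Npr1+/- 2, against 0.39 and 0.24 for the same-numbered libraries 2 and 3. With the number as a block in edgeR, 3 genes had an unadjusted p under 0.05 and were lower in Npr1+/- aortas, where 5.09% of all genes were, and 1 was higher, where 7.36% were. Together these were 4 of the 33 genes, beside 12.4% of all genes, so the number was near the background. Myh10 had a log2 fold change of -0.66 with an SE of 0.16, against 0.42 without the block, and an adjusted p of 0.175. Synpo2 was at -0.63 (SE 0.17, adjusted p of 0.217 in edgeR), Ppp1r12b at -0.44 (SE 0.16, adjusted p of 0.331 in edgeR) and Des at 0.46 (SE 0.12, adjusted p of 0.195 in edgeR). No contractile gene passed the adjusted threshold in this fit. In CPM, 15 of the 33 genes were lower in the Npr1+/- library of all 3 pairs, beside 16.9% of all genes. These were Myh11, Myh10, Myl9, Mylk, Tagln, Cald1, Smtn, Lmod1, Synpo2, Flna, Actn1, Pdlim7, Myocd, Srf and Ppp1r12b. Genes of the list moved together across the libraries, so the 15 are not independent observations.

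**Figure D4:**
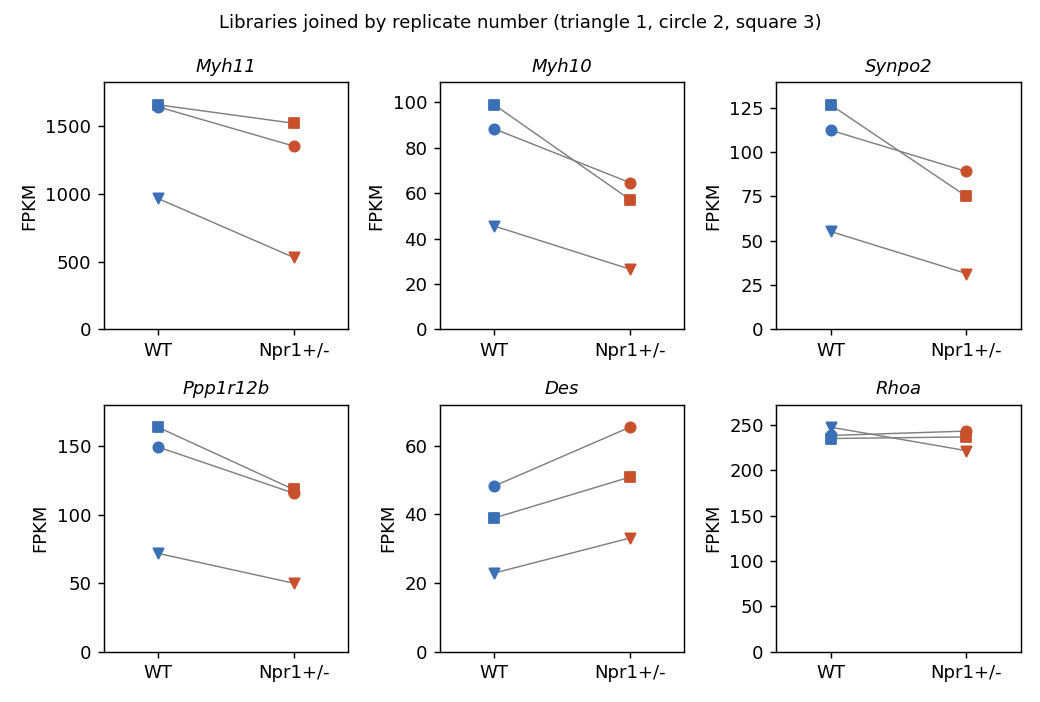
Each panel plots the FPKM of 1 gene in WT (blue) and Npr1+/- (red) libraries, with a line joining the libraries of the same replicate number. Lines slope down in all 3 pairs for Myh11, Myh10, Synpo2 and Ppp1r12b, slope up in all 3 for Des (22.9 to 33.1, 48.3 to 65.4 and 39.0 to 50.9 FPKM) and stay between 222 and 248 FPKM for Rhoa.

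The same 4 genes were at an unadjusted p under 0.05 when WT 1 and Npr1+/- 1 were both left out. Of these, 3 were lower, beside 5.12% of all genes, and 1 was higher, beside 6.43%. Together, 11.5% of all genes were under 0.05 in that fit. Myh10 was then at -0.64 (SE 0.15), Synpo2 at -0.56 (SE 0.16), Ppp1r12b at -0.44 (SE 0.13) and Des at 0.41 (SE 0.17). The adjusted p in edgeR was 0.244 for Myh10, 0.303 for Synpo2, 0.317 for Ppp1r12b and 0.421 for Des. All libraries of this fit were also in the fit with the block, and it was added after seeing the data. The return of the same 4 genes is therefore not an independent check.

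A scaling on the 33 genes themselves asked which genes departed from the rest of the machinery. It centres the 33 genes by construction and moved the median log2 fold change of all genes from 0.0076 to 0.34 without the block. On that scale Myh10, Lmod1 and Flna had all 3 Npr1+/- libraries below all 3 WT libraries (1.16% of all genes did), and Des, Rock1 and Rock2 had them all above (2.11% of all genes). Lmod1 stood at 146, 233 and 235 FPKM in WT and at 86.1, 187 and 216 FPKM in Npr1+/- libraries before that scaling. With the replicate block added, Des had a log2 fold change of 0.72 (SE 0.23) and an adjusted p of 0.0417 in edgeR. The same fit called 4.71% of all genes higher in Npr1+/- aortas, and the median log2 fold change of all genes was 0.26 on that scale. As a share of Myh11 in FPKM, Des was at 2.37%, 2.94% and 2.35% in WT 1 to 3 and at 6.24%, 4.83% and 3.34% in Npr1+/- 1 to 3. Des was not alone in this. Tpm1, Tpm2, Cnn1, Ppp1r14a, Ldb3, Actn1 and Rock1 also had all 3 Npr1+/- libraries above all 3 WT libraries as a share of Myh11. The share of all genes with that pattern was not computed. Myh11 itself was at 58.3%, 81.8% and 81.7% of the same-numbered WT library in CPM, which raises any ratio to it. Tpm1 was at 71.3%, 64.2% and 67.5% in WT and at 82.8%, 77.8% and 79.0% in Npr1+/- libraries. The ratio of Des to Myh11 was chosen after its values were seen and was not tested.

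**Figure D5:**
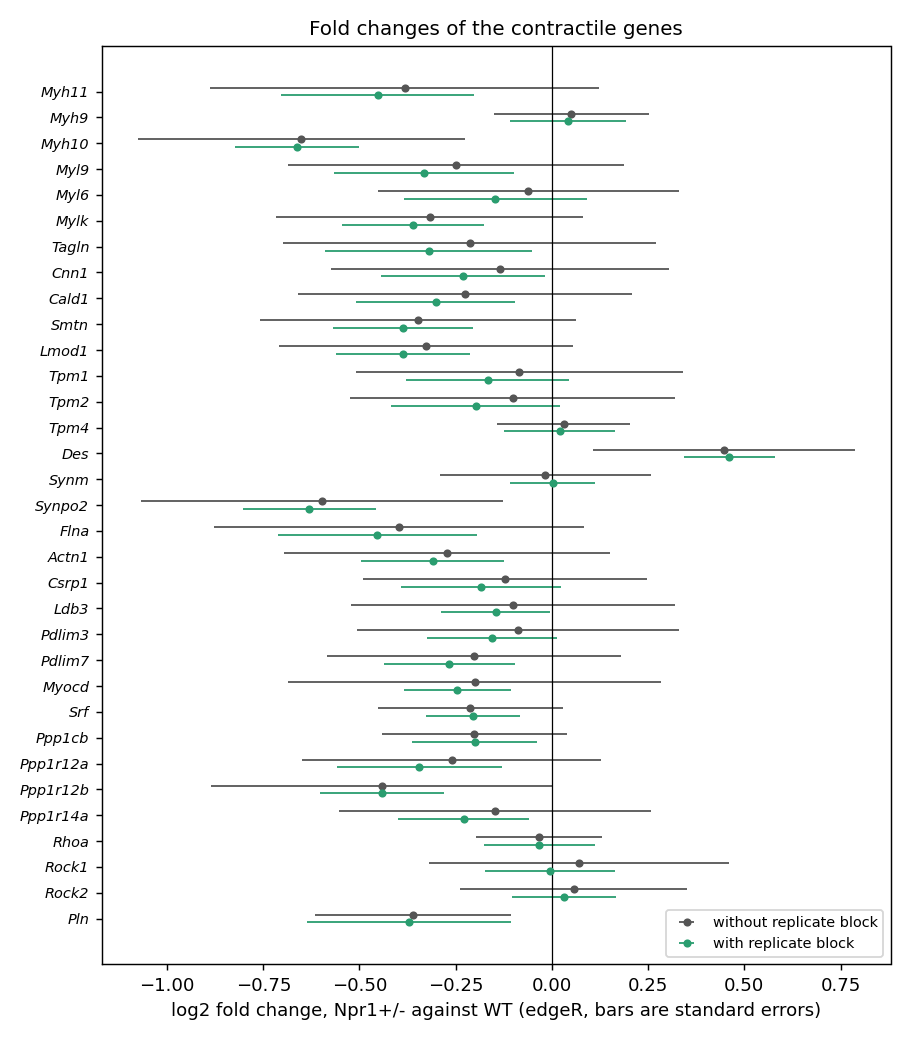
The horizontal axis is the edgeR log2 fold change of Npr1+/- against WT for each of the 33 genes, with bars of 1 standard error, in grey without and in green with the replicate block. The green bars are shorter for Myh10 (0.16 against 0.42) and Des (0.12 against 0.34), and 28 of the grey points lie left of 0, 16 of all 33 changing side without Npr1+/- 1 and 4 without both libraries numbered 1.

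Genes upstream and beside the machinery were read from 5 lists, in which edgeR called 0 genes with and without the block. The lists were chosen with earlier results of these data known, so counts set beside shares of all genes are descriptions only. Of 18 genes of calcium entry, release and calmodulin, 12 had a negative log2 fold change, with a median of -0.17, and the smallest unadjusted p without the block belonged to Orai1, a store-operated calcium channel (0.156, log2 fold change 0.26). With the block, 5 had an unadjusted p under 0.05 and were lower in Npr1+/- aortas, where 5.09% of all genes were (7.36% were higher), a background that holds for the 4 lists that follow as well. They were the L-type calcium channel subunits Cacna1c (-0.44), Cacnb2 (-0.47) and Cacna2d1 (-0.35), the ryanodine receptor Ryr2 (-0.41) and the sodium-calcium exchanger Slc8a1 (-0.34). Their adjusted p in edgeR with the block ran from 0.213 for Cacna1c to 0.358 for Cacna2d1. Cacna1c, the pore of the channel, was at 5.81, 10.9 and 10.9 FPKM in WT and at 3.87, 7.20 and 9.76 FPKM in Npr1+/- libraries.

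Of 20 regulators and relatives of RhoA, other kinases and phosphatase subunits, 12 were negative with a median of -0.038. Cit, citron kinase, had the smallest unadjusted p without the block (0.277), and with the block Rnd3, an antagonist of RhoA, was the single gene under 0.05, at -0.33. Of 27 other actomyosin and adhesion plaque proteins, 19 were negative with a median of -0.12. Svil (supervillin, which links actin and myosin to the membrane) had the smallest unadjusted p without the block, 0.0693, and was at 21.45, 35.9 and 34.1 FPKM in WT and at 13.6, 24.3 and 21.8 FPKM in Npr1+/- libraries. With the block Svil (-0.62), Tes (-0.40) and Lpp (-0.44) were lower at an unadjusted p under 0.05, and Palld (palladin, an actin cross-linker) was higher at 0.68.

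Of 12 regulators of smooth muscle transcription, 7 were negative with a median of -0.092, and Klf4, a repressor of the contractile programme, had the smallest unadjusted p without the block (0.123, log2 fold change 0.24). With the block, the Srf cofactor Mrtfa (-0.27) and the factors Gata6 (-0.49), Mef2a (-0.37) and Mef2c (-0.37) were lower at an unadjusted p under 0.05. Of 10 genes linked to modulated smooth muscle, 5 were negative and 5 positive, with a median of 0.11. Vcan (versican, a matrix proteoglycan) had an unadjusted p of 0.0182 and an adjusted p of 0.999 in edgeR without the block. It was at 24.4, 29.0 and 30.8 FPKM in WT and at 11.8, 21.65 and 19.9 FPKM in Npr1+/- libraries, so that its groups did not overlap. With the block Vcan (-0.72) and Tnfrsf11b (-0.61) were lower and Thbs1 (0.99) was higher at an unadjusted p under 0.05.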

How the data were processed

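RNA-seq of 6 whole aorta libraries, 3 WT and 3 Npr1+/-, was analysed. The authors filtered the reads, aligned them to a gene set with Bowtie2 and deposited RSEM estimated counts, without normalization, and the FPKM of the same genes. The build in the submitters' processing notes is mm10, and FPKM was recognised from the values. RSEM divides reads shared between genes, and strand use in counting is not given in the sources used here. Of the 18191 genes, 18070 were paired with a symbol from RefSeq. A group of columns named differently from the labels was taken as Npr1+/-.

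Estimated counts were rounded and tested in edgeR 4.0.16 (R 4.3.3) with TMM, a minimum count of 10, the quasi-likelihood test and Benjamini-Hochberg adjustment over 13938 genes. CPM values were TMM-normalized. The test was checked on simulated counts. The 33 genes, the other lists and the marker lists were chosen with earlier results of these data known. One gene of the marker lists is not reported here. All 33 genes were named. Values in every library were given for the 10 of highest FPKM, those with an unadjusted p under 0.05 with or without the block and those whose groups did not overlap. Of each other list the genes under 0.05, or else the smallest p, were named.

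Deviations of same-numbered libraries from their group means correlated at 0.64, 0.39 and 0.24 across genes (genes are not independent replicates), each above the 0.1 set for using the numbers as pairs in the replicate block. WT 3 with Npr1+/- 2 (0.45) and WT 2 with Npr1+/- 3 (0.37) correlated as much, so that number 1 alone stood apart. Deviations cancel out within a group, so a shift shared by the libraries numbered 1 also raises the correlations among numbers 2 and 3. Passing 0.1 was therefore no check of those pairs. The labels do not say what a number stands for. Alternatives were DESeq2 1.42.0, its size factors, no filter on low counts, limma 3.58.1 on log2(FPKM + 0.1) where the gene averaged at least 0.1 FPKM, estimated counts in the family shares, no threshold on the fold change, and each library left out. Scaling on the 33 genes and leaving out both libraries numbered 1 were added after seeing the data. A count of 3 in a library was 0.180 to 0.222 CPM, which covers counting error only.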

Additional observations from a re-analysis of the deposited data

How the results depend on the processing

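No contractile gene was called by edgeR with DESeq2 size factors, with limma on FPKM, with all low-count genes kept, with the replicate block, without a threshold on the fold change or without any 1 library, nor by DESeq2. Among all genes tested, these edgeR and limma fits also called 0, and DESeq2 called 15. Scaling on the 33 genes with the replicate block called 1 gene of the list, Des, and 662 of the 13938 genes tested. Des was also the 1 gene of the list with an unadjusted p under 0.05 there, beside 15.7% of all genes. Pairing by the replicate block moved the genes with an unadjusted p under 0.05 from 0 (2.96% of all genes) to 4 (12.4% of all genes). It turned Synm to 0.0016 and Rock1 to -0.0046 in log2 fold change, and changed no other call. Limma on FPKM turned Synm to 0.078 and Rock1 to -0.014.

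Leaving out each library in turn, the median log2 fold change of the 33 genes ran from -0.39 to 0.09, and the genes whose groups did not overlap ran from 0 to 14 (lower in Npr1+/-, 14 without WT 1, where 16.5% of all genes were, and 2 without Npr1+/- 2, where 7.74% were) and from 0 to 4 (higher, 4 without Npr1+/- 1, where 8.63% of all genes were). The direction of 16 genes turned without Npr1+/- 1. Log2 fold changes that changed sign without 1 library ran from -0.052 to 0.15 for Myh9, -0.46 to 0.053 for Myl9, -0.28 to 0.23 for Myl6, -0.44 to 0.11 for Tagln, -0.38 to 0.19 for Cnn1, -0.44 to 0.087 for Cald1, -0.33 to 0.22 for Tpm1, -0.37 to 0.21 for Tpm2, -0.085 to 0.13 for Tpm4, -0.24 to 0.17 for Synm, -0.52 to 0.013 for Actn1, -0.33 to 0.14 for Csrp1, -0.36 to 0.21 for Ldb3, -0.41 to 0.22 for Pdlim3, -0.41 to 0.091 for Pdlim7, -0.57 to 0.13 for Myocd, -0.56 to 0.031 for Ppp1r12a, -0.38 to 0.17 for Ppp1r14a, -0.13 to 0.38 for Rock1 and -0.14 to 0.27 for Rock2. Differences in family shares (Npr1+/- minus WT, percentage points) ran from -2.01 to 0.602 for Myh11, -5.30 to 2.24 for Ppp1r12b and -2.79 to 1.94 for Rock1.

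With neither library numbered 1, 4 genes had an unadjusted p under 0.05 (11.5% of all genes did), 14 were lower and 5 higher without overlap between 2 libraries and 2 (21.8% and 22.8% of all genes), and Myl6 (0.12), Tpm1 (0.0425), Tpm2 (0.047) and Csrp1 (0.0058) turned positive. Scaled on the 33 genes, 3 were lower and 3 higher without overlap, and 11 and 8 when the libraries numbered 1 were also left out (14.9% and 31.5% of all genes), with 4 genes at an unadjusted p under 0.05 (13.0% of all genes). On that scale Tagln (0.017), Synm (-0.0095), Myocd (-0.096), Srf (-0.17) and Ppp1cb (-0.14) changed sign between the 2 sets of libraries. The causes of these changes were not tested.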
